A study of Mus musculus with 6 samples.

Results

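The genes described here encode the scaffold of the postsynaptic density, and they were chosen by name: Dlg1, Dlg2, Dlg4, Dlgap1, Shank1, Shank2, Shank3 and Homer1. The table of adult hippocampal RNA counts lists 7 of these 8 genes among its 7507 genes, and Shank3 was not analysed here. The postsynaptic density is the protein layer under the membrane of excitatory synapses, where glutamate receptors are held opposite the site of release. Dlg proteins bind receptors and channels with their PDZ domains, Dlgap proteins (also called SAPAP or GKAP) join the Dlg proteins to Shank proteins, and Shank proteins bind Homer, which in turn contacts metabotropic glutamate receptors and intracellular calcium channels. In the hippocampus the scaffold lies in the dendritic spines of dentate granule cells and of CA1 pyramidal cells, and some of its mRNAs are transported into dendrites.

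The libraries came from BALI-Multiome, in which light uncages DNA ends inside a drawn area of a tissue section so that an area-specific index can be ligated to the cDNA there. In each of 3 coronal sections, cut from adult mouse brain that had been fresh frozen, the dentate gyrus (DG) was illuminated and ligated first and the CA1 second, so that region and order of ligation cannot be told apart. Each section therefore gave 1 DG library and 1 CA1 library, 6 RNA libraries in all, paired by section. No strain, genotype or treatment other than this barcoding was used as a contrast, and the animals' age is 12 weeks in the sample labels but 8 to 12 months in the stated protocol. Neither the labels nor the methods say whether the 3 RNA sections came from separate animals. The paper calls the replicates of this experiment's chromatin profiles biological, without giving the number of animals. The p-values below therefore measure the spread between the libraries of these sections. They leave out the pairing by section, except where the pairing is named.

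The values are unique molecular identifiers (UMIs), short random tags that let copies of a cDNA be counted once. The DG libraries held between 4572 and 17999 UMIs and the CA1 libraries between 2844 and 9357, and the DG library was the deeper in every section. A level is given as UMIs per 10000 UMIs of the library. With a count of 0, taken to allow 3 UMIs, the level may be as high as 1.67 in the deepest library and 10.5 in the shallowest. Neuron markers were present in both regions, with all 7 listed markers detected and 450 UMIs together. The markers of DG granule cells held 12 UMIs in the DG and 2 in the CA1 for the 3 genes listed. Synpr and Pdzd2 were at 0 in the CA1 and Calb1 at 0 in the DG. The markers Prox1, C1ql2, Dsp and Tdo2 were looked for but were not among the 7507 genes listed. The markers of CA1 pyramidal cells held 8 UMIs in the DG and 12 in the CA1, with Wfs1 and Neurod6 at 0 in the DG and Fibcd1 at 0 in the CA1. Of these 12 UMIs, 10 came from section 1, and Pou3f1, the marker with most UMIs, had 2 in each DG library against 4, 0 and 0 in the CA1. At these counts the identity of the regions could be checked only weakly.

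Summed over the 7 genes, the scaffold share was higher in the DG than in the CA1 in 3 of 3 sections, by a difference about as large as its spread between sections. In the DG, sections 1, 2 and 3 gave 64, 11 and 21 scaffold UMIs, or 35.6, 24.1 and 33.3 UMIs per 10000. The CA1 libraries of the same sections held 28, 6 and 6, or 29.9, 21.1 and 12.3 per 10000. The ranges of the regions overlapped, since the CA1 library of section 1 lay above the DG library of section 2. The mean was 31.0 ± 6.10 UMIs per 10000 (SD, n = 3) in the DG and 21.1 ± 8.80 (SD, n = 3) in the CA1, a ratio of 1.47 or 0.55 on the log2 scale. The difference of 9.87 UMIs per 10000 had an SD of 9.74 over the 3 sections. Without Dlgap1, the member with most UMIs, the other 6 genes were higher in the DG in 2 of 3 sections. Section 1 then turned, at 18.3 in the DG against 21.4 in the CA1. The ratio of their summed UMIs was 1.16 (exact 95% interval for counting error 0.724 to 1.90).

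The size of the difference came mainly from section 3, where the DG share was 2.704 times the CA1 share, with an exact 95% interval of 1.06 to 8.19 from the UMI counts. In section 1 the ratio was 1.19 (0.751 to 1.92) and in section 2 it was 1.14 (0.387 to 3.76). Without section 3 the log2 ratio of the means fell from 0.55 to 0.22, without the CA1 library of section 3 alone it was 0.28, and without the CA1 library of section 1 it was 0.89. Summing the UMIs of each region gave 33.3 UMIs per 10000 in the DG and 23.4 in the CA1, a ratio of 1.42 with an interval of 0.972 to 2.11. These intervals cover counting error only. The plot of the summed share by section shows the intervals of all 6 libraries side by side.

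**Figure D1:**
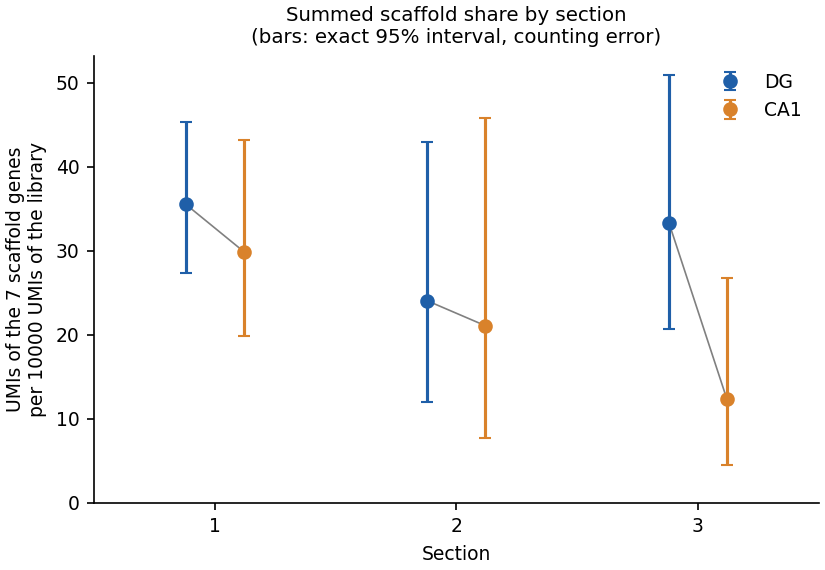
UMIs of the 7 scaffold genes per 10000 UMIs of the library (vertical axis) in the DG and the CA1 of sections 1, 2 and 3 (horizontal axis); points are single libraries, bars the exact 95% interval of the counts and lines join a section. The DG point lies above the CA1 point in each of the 3 sections, but the bars overlap in all of them.

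These regions are bulk samples, so fewer cells of a type and less RNA per cell cannot be told apart. The sum of the 7 neuron markers moved the other way: it was lower in the DG in 3 of 3 sections, at 88.6 ± 7.08 UMIs per 10000 (range 81.0 to 95.0) against 118.0 ± 26.0 (range 99.4 to 147.7) in the CA1, with no overlap. Without the CA1 library of section 2 the difference went from -29.4 to -14.6 UMIs per 10000, and the ratio of the summed UMIs was 0.831 (exact 95% interval 0.687 to 1.01). Camk2a, a kinase subunit abundant in excitatory neurons, was at 32.0 ± 8.83 against 50.4 ± 20.4, while Map2 had the higher mean in the DG and Nrgn and Snap25 were higher there in 2 of 3 sections. Oligodendrocyte markers (6 listed) were also lower in the DG in 3 of 3 sections, at 67.1 ± 15.1 against 81.4 ± 16.5, with overlapping ranges of 50.3 to 79.4 and 66.8 to 99.4, and their difference of -14.4 was -5.99 without the DG library of section 2 and -5.39 without the CA1 library of section 1. Astrocyte markers (5 listed) were at 21.3 ± 4.40, ranging from 16.7 to 25.4, against 22.2 ± 5.84, ranging from 17.6 to 28.8, with Aqp4 at 0 in the DG. Their part in the scaffold result was not tested. Markers of interneurons (5 listed) held 12 UMIs in the DG and 7 in the CA1, and those of oligodendrocyte precursors, microglia and endothelial cells held 7, 3 and 10 UMIs over all libraries.

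The scaffold signal rested on few genes. Dlgap1, Shank1 and Homer1 held 122 of the 136 scaffold UMIs, or 89.7%, and the other 4 members shared 14. All members together made up 0.296% of the 45935 UMIs of the 6 libraries. Between 3 and 6 of the 7 members were detected in a library, with 6 in the deepest DG library and 3 in the CA1 library of section 3.

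The 3 Dlg genes encode membrane-associated guanylate kinases: Dlg1 encodes SAP97, Dlg2 encodes PSD-93 and Dlg4 encodes PSD-95. They held 12 UMIs together, at 3.42 ± 2.01 UMIs per 10000 (SD, n = 3) in the DG and 3.74 ± 2.85 (SD, n = 3) in the CA1. Dlg2 (chromosome 7, 90476188 to 92449246 of GRCm38.p6, the assembly of mm10) had 1 UMI in each DG library, and 2, 1 and 0 UMIs in the CA1 of sections 1, 2 and 3. Dlg4 (chromosome 11, 70017203 to 70045535) had 0, 0 and 2 UMIs in the DG, against 0, 1 and 1 in the CA1. Dlg1 (chromosome 16, 31663443 to 31873356) had 1, 1 and 0 UMIs in the DG and none in the CA1, where a count of 0 over the 17066 UMIs of the region allows up to 1.76 UMIs per 10000. No member of this group was detected in all 6 libraries, and their levels overlapped between the regions.

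No regional difference in the Dlg genes could be detected at this depth. The ratio of DG to CA1 for the summed UMIs had an exact 95% interval of 0.0792 to 4.41 for Dlg2 and of 0.0428 to 8.16 for Dlg4. The exact permutation p (two-sided, 3 libraries against 3) was 0.9 for Dlg2, 0.7 for Dlg4 and 0.4 for Dlg1. With 3 libraries a region, such a test cannot go below 0.1, which is the smallest p it can give, and 7 members were compared.

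Dlgap1, the adaptor between Dlg and Shank proteins (chromosome 17, 69969073 to 70821413), was the member with most UMIs and ranked 73 of the 7507 genes. Its DG libraries held 31, 3 and 7 UMIs and its CA1 libraries 8, 3 and 1. The levels were 17.2, 6.56 and 11.1 UMIs per 10000 in the DG, against 8.55, 10.5 and 2.06 in the CA1. The DG library of section 1 stood highest, and in section 2 the CA1 level was above the DG level, so the ranges overlapped. The means were 11.6 ± 5.35 (SD, n = 3) and 7.05 ± 4.44 (SD, n = 3), with an exact permutation p of 0.4. The summed UMIs gave a ratio of 2.02 with an exact 95% interval of 1.04 to 4.22, which treats the 3 libraries of a region as 1 and leaves out the spread between them. Without the DG library of section 1 the difference of the means dropped from 4.58 to 1.79 UMIs per 10000, and without section 2 it was 8.87. Of its exon bases, 92 overlap Gm41609 on the opposite strand in RefSeq. By default the counter ignores strand and leaves a read that overlaps both genes unassigned, so these bases may go uncounted.

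Shank1 (chromosome 7, 44308916 to 44360094) encodes a Shank protein made almost entirely in the brain. The DG libraries held 21, 4 and 9 UMIs of this gene, against 9, 0 and 4 for the CA1. Its level was 11.7, 8.75 and 14.3 UMIs per 10000 in the DG, against 9.62, 0 and 8.22 in the CA1. Shank1 was higher in the DG in every section, and the ranges overlapped only in that the CA1 library of section 1 lay above the DG library of section 2. The 0 in the CA1 of section 2 comes from the shallowest library, where it allows up to 10.5 UMIs per 10000.

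Averaged over the libraries, Shank1 was at 11.6 ± 2.77 UMIs per 10000 (SD, n = 3) in the DG and 5.95 ± 5.20 (SD, n = 3) in the CA1. The difference within sections was 2.05, 8.75 and 6.07 UMIs per 10000, a mean of 5.62 with an SD of 3.37. The exact permutation p was 0.2 without the pairing and 0.25 when signs were flipped within sections, the smallest value that 3 sections allow. Without the CA1 library of section 2 the difference was 2.65. The summed UMIs gave a ratio of 1.55 (exact 95% interval 0.795 to 3.19). Shank2 (chromosome 7, 143978077 to 144426043), a second Shank family member, had 1 UMI in the DG and 1 in the CA1 of section 1 and none in the other sections, which allows no comparison. Of its exon bases, 131 overlap Gm14372 on the opposite strand.

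Homer1 (chromosome 13, 93303757 to 93405129) encodes both the long Homer proteins that cross-link the scaffold and a short form induced by neuronal activity, and its count here is of the gene as a whole. The DG libraries held 9, 2 and 2 UMIs and the CA1 libraries 8, 1 and 0. In levels this was 5.00, 4.37 and 3.18 UMIs per 10000 in the DG, against 8.55, 3.52 and 0 in the CA1. All DG values lay inside the CA1 range, whose top came from section 1 and whose 0 in section 3 allows up to 6.17 UMIs per 10000. Homer1 was at 4.18 ± 0.927 (SD, n = 3) in the DG and 4.02 ± 4.30 (SD, n = 3) in the CA1, with an exact permutation p of 1. The sign of the difference turned when the UMIs of a region were summed, which gave a ratio of 0.854 (exact 95% interval 0.338 to 2.26).

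**Figure D2:**
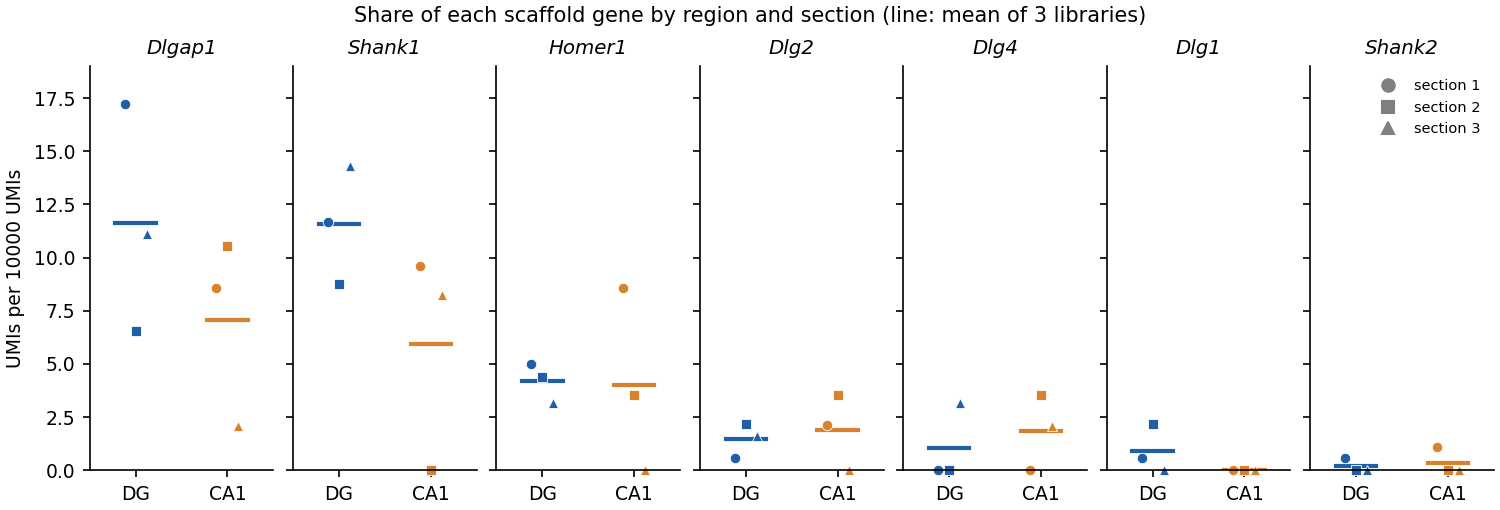
UMIs per 10000 UMIs of the library (vertical axis) for each of the 7 scaffold genes in the DG and the CA1; each point is 1 library, its shape gives the section and the line the mean of 3 libraries. Shank1 is higher in the DG in every section, Dlgap1 has its top value of 17.2 in the DG of section 1, and the 4 genes on the right stay at or below 3.52.

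The members covered a wide range of levels. Without regard to length, Dlgap1 was at a mean of 9.34 UMIs per 10000 over the 6 libraries and Shank1 at 8.76. Dlg2 was at 1.66 and Dlg4 at 1.46. Divided by kilobases of exon, the mean level was 1.15 ± 0.636 UMIs per 10000 per kilobase (SD, n = 6) for Shank1 and 1.02 ± 0.550 for Dlgap1. Homer1 followed with 0.530 ± 0.360, Dlg4 with 0.396 ± 0.453 and Dlg2 with 0.207 ± 0.157. Dlg1 was at 0.0748 ± 0.143 and Shank2 at 0.0304 ± 0.0505. Per kilobase, Shank1 lay above Dlgap1 in 4 of 6 libraries and below it in 2. Their order thus turned on division by length, within the spread. Dlgap1 was above Homer1 in 5 of 6 libraries. Homer1 and Dlg4 each stood above the other in 3 libraries, as did Dlg4 and Dlg2, so these neighbors did not differ beyond their spread, nor did the genes at the bottom. Wider steps were plainer: Dlgap1 exceeded Dlg1, Dlg2 and Shank2 in 6 of 6 libraries, and the level of Shank1 was 2.91 times that of Dlg4 and higher in 5 of 6. Exon lengths were those of curated RefSeq transcripts. By the paper's protocol, reverse transcription starts at the poly(A) tail and the last index carries the UMI. A cDNA is thus counted once whatever its length, so division by length can favor short genes and does not correct these counts.

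Compared with all genes that had at least 20 UMIs, Shank1 and Dlgap1 had ratios above the upper quartile of 0.42 on the log2 scale, and Homer1 lay near the middle. Of the 361 genes with at least 20 UMIs, 48.8% had a higher mean share in the DG, as did 3 of the 3 members at this depth, although Homer1 changed sign with the averaging. A share higher in the DG in 3 of 3 sections was found for 12.5% of the genes and for 1 of the 3 members, Shank1. For 15% of the genes, and for none of these members, the share was lower in the DG in 3 of 3 sections. All DG libraries lay above all CA1 libraries for 5.26% of the genes and for none of the members. The median log2 ratio of the mean shares was 0.72 for the 3 members, which is the value of Dlgap1, and -0.019 for the 361 genes. The cut of 20 UMIs is on the UMIs of both regions, and the DG held 28869 of the 45935. Dlgap1 and Shank1, with 12 and 13 UMIs in the CA1, reached the cut only through the DG. The counts and the median of the 3 members are therefore no measure of a shift between the regions. Of these genes, 9.70% had a ratio at or above that of Shank1, 13.9% at or above that of Dlgap1 and 46.5% at or above that of Homer1. Over all 7 members, 4 had the higher mean in the DG and 3 in the CA1, and the cut left out those 3 and Dlg1.

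No scaffold gene passed the test across genes. By edgeR's quasi-likelihood test with Benjamini-Hochberg adjustment, 43 genes had enough counts to be tested and 0% of them passed an adjusted p of 0.05. Among these 43, 3 had an unadjusted p under 0.05, while DESeq2 called 0 and gave 0 at the unadjusted level. None of the 7 members was among the 43. With a lower minimum count of 5, 115 genes were tested and 0.87% passed, which is 1 gene, Prkce, a protein kinase C that is no scaffold member and is named because it was called. Dlgap1 and Shank1 were then tested. The log2 ratio of Dlgap1 was 0.98 (SE 0.49), with an edgeR adjusted p of 0.829 and an unadjusted p of 0.0433. For Shank1 it was 0.69 (SE 0.51), with an edgeR adjusted p of 0.916. With no filter, all 7507 genes were tested and 0% passed, with 127 at an unadjusted p under 0.05 and none of the members among these. In that fit Dlgap1 was at a log2 ratio of 1.11 (SE 0.66) and Shank1 at 0.88 (SE 0.67), both with an edgeR adjusted p of 0.663. The median of all genes was 0.46, but it includes many genes with very few UMIs. Genes with at least 20 UMIs, as Dlgap1 and Shank1 are, had a median log2 ratio of the mean shares of -0.019.

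**Figure D3:**
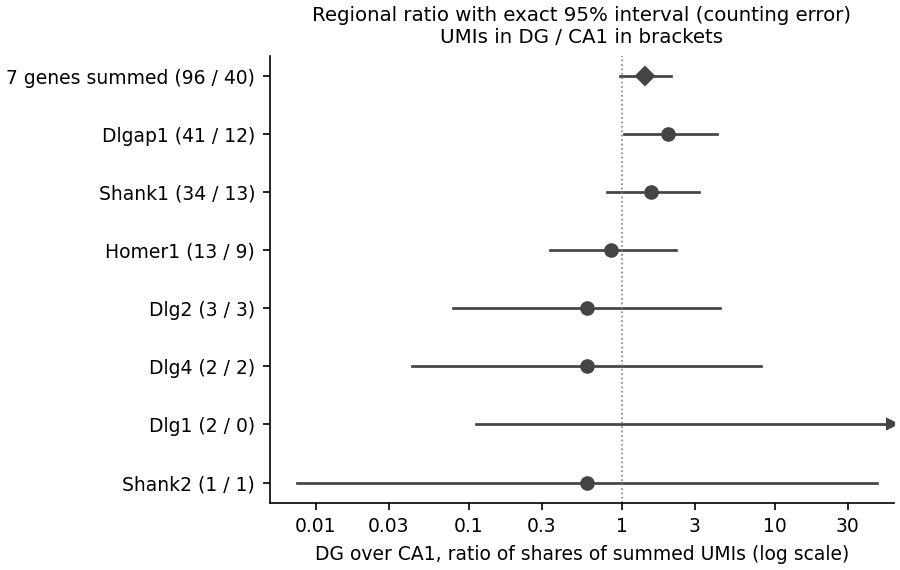
Ratio of the DG share to the CA1 share (horizontal axis, log scale) from the summed UMIs of 3 libraries a region, with exact 95% intervals for counting error; the UMIs of the DG and the CA1 are in brackets and the dotted line marks equal shares. The interval of Dlgap1 starts at 1.04 and those of the other genes and of the sum include 1; Dlg1, with none in the CA1, has no ratio, only a lower limit.

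Relatives of the same families had no common order of the regions across the sections. The 12 further membrane-associated guanylate kinase, Dlgap and Homer genes held 89 UMIs, at 20.0 ± 9.41 UMIs per 10000 (SD, n = 3) in the DG and 21.0 ± 7.38 (SD, n = 3) in the CA1. Their sum was lower in the DG in 2 of 3 sections and higher in section 2. Homer2, a paralog of Homer1, had 3, 2 and 1 UMIs in the DG, against 8, 1 and 3 for CA1. At 2.54 ± 1.59 against 6.08 ± 2.52 UMIs per 10000 it had an exact permutation p of 0.2, and its summed UMIs gave a ratio of 0.296 (exact 95% interval 0.0910 to 0.851). Dlgap4, a paralog of Dlgap1, had 4, 5 and 0 UMIs against 3, 1 and 2, and the scaffold gene Magi2 had 5, 2 and 2 against 0, 1 and 2. Dlgap4 and Magi2 overlapped widely between the regions.

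Other genes of the excitatory postsynaptic density gave a sum that was higher in the DG. The 31 listed adaptor, scaffold and regulator genes held 341 UMIs, at 77.9 ± 3.65 UMIs per 10000 (range 74.4 to 81.7) in the DG and 58.2 ± 20.4 (range 35.2 to 73.7) in the CA1. Each of the 3 sections had the higher sum in the DG, but the ranges came apart by less than 1 UMI of the DG library of section 2. The difference of 19.7 had an SD of 17.0 over the sections and was 8.19 without the CA1 library of section 2, the shallowest. The ratio of the summed UMIs was 1.22 (exact 95% interval 0.972 to 1.55). Baiap2, which encodes the actin regulator IRSp53, had 18, 10 and 4 UMIs in the DG, against 8, 0 and 2. Every section had the higher Baiap2 level in the DG, at 12.7 ± 8.12 against 4.22 ± 4.28 UMIs per 10000, with an exact permutation p of 0.2. In the DG of section 2, Baiap2 made up 21.9 of the list's 74.4 UMIs per 10000. In the CA1 of section 1 it made up 8.55 of 73.7, so the ranges of the list overlap without this gene. Tanc2, which encodes a scaffold that binds PSD-95, had 17, 4 and 6 UMIs against 7, 1 and 4. Its levels were 9.44, 8.75 and 9.53 UMIs per 10000 in the DG, against 7.48, 3.52 and 8.22 in the CA1, without overlap, and the exact permutation p was 0.1, the smallest possible. Sipa1l1, with 17 UMIs and named after its values were seen, went the other way with the same exact p of 0.1. It was at 2.78, 2.19 and 3.18 UMIs per 10000 in the DG, against 5.34, 3.52 and 6.17 for CA1. Iqsec1, with 10 UMIs and likewise named after its values were seen, did not overlap either and was higher in the DG. Its levels were 2.78, 2.19 and 4.76 UMIs per 10000 against 0, 0 and 2.06, with an exact permutation p of 0.1. Sipa1l1 and Iqsec1 lie under 20 UMIs, where no share over all genes was taken. Agap2, a GTPase-activating protein, and Kalrn, an exchange factor that shapes spines, held 27 UMIs each and overlapped between the regions. Of the 8 genes of this list with at least 20 UMIs, 3 were higher in the DG in 3 of 3 sections (Baiap2, Tanc2 and Lrrc7). Among the same 8, 1 was lower in 3 of 3, Anks1b, and 1 did not overlap, Tanc2. These counts are to be read against the same 12.5%, 15% and 5.26% of all genes.

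At inhibitory synapses, which use another scaffold built on gephyrin, counts were lower still. The 5 listed genes held 25 UMIs, at 2.04 ± 3.53 UMIs per 10000 (SD, n = 3) in the DG and 5.32 ± 7.50 (SD, n = 3) in the CA1, and all UMIs but 1 came from section 1. Gphn, the gene of gephyrin, had 5 UMIs in the DG and 3 in the CA1, and Nlgn2, an adhesion protein of inhibitory synapses, had 2 and 4. Lhfpl4, which holds GABA receptors at synapses, had 1 in the DG and 3 in the CA1. In the fit without a filter, 0 of the 48 genes of these 3 lists passed the adjusted threshold of edgeR in either direction, with 1 at an unadjusted p under 0.05. Their median log2 ratios were 0.53 for the family relatives, 0.34 for the other excitatory genes and -1.16 for the inhibitory genes, beside 0.46 for all genes and 0.042 for the 7 members. All of these medians include genes with very few UMIs, so they are no measure of a shift between the regions.

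**Figure D4:**
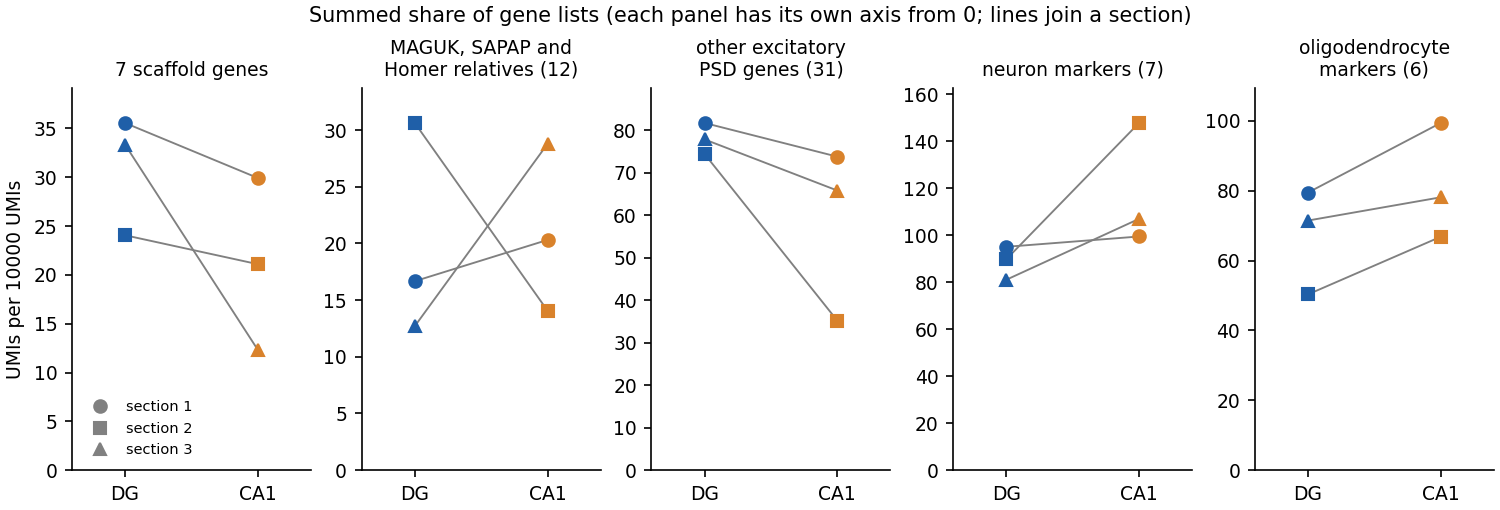
Summed UMIs per 10000 UMIs of the library (vertical axes, each from 0) of the 7 scaffold genes, 12 family relatives, 31 other excitatory postsynaptic genes, 7 neuron markers and 6 oligodendrocyte markers in the DG and the CA1; points are libraries and lines join a section. The scaffold genes and the other excitatory genes are lower in the CA1 than in the DG in every section, both marker lists are higher in the CA1, and the lines of the family relatives cross.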

How the data were processed

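RNA libraries of the DG and the CA1 from 3 sections were examined, and the matching chromatin libraries were not analysed here. According to the methods, the authors extracted UMIs with umi_tools, sorted reads into regions by barcode with cutadapt 4.1, mapped read 1 to mm10 with STAR 2.7.9a, assigned it to exons with featureCounts (Subread 2.0.3, default options) and counted UMIs per gene. Each of the deposited counts is 1 higher than the UMIs of that gene and library, so 1 was subtracted, and the line of totals was dropped. The design assumed raw counts, and the counts as deposited are an alternative. The 6 columns of CPM, the authors' regional means and SDs, and their fold and log10 ratios were not used.

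A level is the UMIs of a gene over all gene-assigned UMIs of the library. The level of a single gene was compared between 3 and 3 libraries by an exact permutation test, two-sided, and intervals of shares and ratios are exact (Clopper-Pearson, 95%). All genes were tested with edgeR 4.0.16 (quasi-likelihood, TMM, filterByExpr with a minimum count of 10, R 4.3.3), which was tested on simulated data, with DESeq2 1.42.0 as an alternative. Other steps used Python 3.11.15 with scipy 1.17.1. Positions and exon lengths were read from RefSeq's gene models for GRCm38.p6. The members and lists were chosen with earlier results of these data known. Named are all members, the 3 genes with most UMIs of each other list, any gene past the threshold and the 5 genes most like the sum. For the inhibitory list, a tie for the last place gave 4 genes, of which 1 is not reported here. Other lists were markers of neurons, DG granule cells, CA1 pyramidal cells, interneurons, astrocytes, oligodendrocytes, oligodendrocyte precursors, microglia and endothelial cells. The DG and CA1 libraries with the same number share a section and so are paired, and their deviations from the regional means correlated over 361 genes at 0.283, 0.0398 and 0.0312. Alternatives were other size factors and filters, another denominator, summed UMIs, section as a block, and leaving out each section or library. For the marker and excitatory lists, leaving out each library was added after seeing the data.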

Additional observations from a re-analysis of the deposited data

How the results depend on the processing

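The summed scaffold share stayed higher in the DG under all 15 alternatives run, with log2 ratios of the means between 0.22 and 0.89. Leaving out each section or library in turn gave that whole range, the lowest without section 3 and the highest without the CA1 library of section 1. With the sections as a block, that is the mean of the log2 ratios within sections, the value was 0.62. Without Dlgap1 the log2 ratio of the means was 0.46, though the sum in section 1 then lay lower in the DG. The count of genes called by edgeR was 0 in the reported fit and in all others except 2: it was 1 with a minimum count of 5 and 1 with the replicate block and no filter, Prkce both times. In the first it had a log2 ratio of 2.29 (edgeR adjusted p = 0.00292) and in the second one of 2.45 (edgeR adjusted p = 0.0202). In the second fit Dlgap1 was at a log2 ratio of 1.15 (SE 0.47), with an edgeR unadjusted p of 0.0144 and adjusted p of 0.984. An unadjusted p under 0.05 was found there for 68 of 7507 genes. Shank1 was at 0.86 (SE 0.49) in that fit, with an edgeR adjusted p of 0.984. Leaving out sections or libraries gave 0 called genes each time. Pairing by section moved no other call.

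Among single members, the difference in UMIs per 10000 stayed above 0 under all alternatives for Dlgap1 (1.79 to 8.87) and Shank1 (2.65 to 7.46). For Dlg1, with 2 UMIs in the DG and 0 in the CA1, only the counts as deposited could turn the sign, and with them the difference was 0.266. The difference changed sign for Homer1, at -0.771 with the UMIs of a region summed and from -1.85 to 2.43 on leaving out sections or libraries. Leave-outs also turned Dlg2 (-1.46 to 0.375), Dlg4 (-1.86 to 0.560) and Shank2 (-0.356 to 0.185), each resting on 6 UMIs or fewer. Depth limits all of these values: with 2844 UMIs in the shallowest library, 1 UMI is a level of 3.52 per 10000.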

Other observations

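Among the 188 other genes with at least 30 UMIs over the 6 libraries, the levels of 5 genes followed the summed scaffold share most closely over the libraries. Cplx2, which encodes the presynaptic release regulator complexin, had Pearson's r of 0.933, with 18.3, 10.9 and 17.5 UMIs per 10000 in the DG against 13.9, 3.52 and 4.11 in the CA1, and every section had the higher value in the DG. Arid1a, a subunit of chromatin remodelling complexes, had r of 0.887 and Unc80, a subunit of the sodium leak channel complex, 0.876. The translation factor gene Eif5b was at 0.865 and the ribosomal protein gene Rps21 at 0.810. The median r over the 188 genes was -0.023 and the range -0.867 to 0.933, with 6 genes above 0.8. The 6 points are libraries that share sections and differ in depth, and the genes were picked for this likeness, so the values are a description.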
